A study of Mus musculus with 7 samples.

Results

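Sp6, Sp7, Sp8, Sp5, Klf4 and Klf5 are 6 zinc finger transcription factor genes of the SP and KLF family, and their surroundings were examined here for open chromatin. A peak counted for a gene if it lay inside the gene body or within 50 kb of it. Each of the 6 genes was found in the RefSeq table of the mouse assembly GRCm38, among 20661 autosomal protein-coding genes. Peaks of all 7 libraries that share at least 1 bp were joined into regions, which gave 82 regions at the 6 loci of 128642 on the autosomes. The number of peaks at the 6 loci together ran from 41 in Sox2-positive replicate 1 to 63 in ectoderm replicate 1, which had the longest list. Among the 38000 autosomal peaks per library with the highest −log10 p, it ran from 30 in ectoderm replicate 1 to 44 in lower molar.

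Open chromatin was mapped by Omni-ATAC, in which a transposase inserts sequencing adapters where DNA is not wrapped in nucleosomes. The ectoderm libraries (replicates 1 and 2) came from first pharyngeal arches of embryos at embryonic day 11.5, whose surface layer was separated from the mesenchyme after Dispase II treatment. The Sox2-positive libraries (replicates 1 and 2) came from the labial cervical loop of the lower incisor at postnatal day 2 (P2), dissociated and sorted by flow cytometry. The sorted cells came from a line named Sox2-GFP, in which the endogenous Sox2 promoter drives GFP, and the labels call them DESC, dental epithelial stem cells. They are called the sorted cells or Sox2-positive cells here. Lower incisor, lower first molar and upper first molar at P2 were each taken as a whole tooth, with 1 library apiece. The labels give no strain, no sex and no number of animals per library, and nothing says that replicates came from separate animals, so the spread between replicates may be technical.

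SP and KLF proteins share a cluster of zinc fingers at the C terminus and bind GC-rich boxes and CACCC-like sites in promoters and enhancers. Sp6, also called epiprofin, is needed in the dental epithelium for ameloblasts to form, the cells that secrete enamel. Sp7, also called osterix, is required for osteoblasts, the bone-forming cells, and is expressed in odontoblasts, the dentin-forming cells of the dental mesenchyme. Sp8 acts in the ectoderm of the limb bud and face, and Sp5 is a direct target of WNT signalling in embryos. Klf4 and Klf5 regulate differentiation and proliferation in stratified epithelia.

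The autosomal lists ran from 38326 peaks in Sox2-positive replicate 2 to 80850 in ectoderm replicate 1, with unknown read depth. Peak counts at the loci are therefore given for the full lists and for the 38000 autosomal peaks per library with the highest −log10 p, here called the equal-length lists. These kept 99.1% of the list of Sox2-positive replicate 2 and 47.0% of that of ectoderm replicate 1. Where a peak's rank is given as a percent of its full list, the same percent stands for fewer peaks in a shorter list. A missing peak means that none was called, not that the DNA was closed. Fewer open cells and less openness per cell cannot be told apart in bulk libraries. All 5 epithelial marker genes reported (Krt5, Krt14, Epcam, Cdh1 and Grhl2) had a peak less than 1 kb from an end of the gene in all 7 full lists, and 3 of 5 in the equal-length list of incisor. Of 5 ameloblast markers, 1 had one in each ectoderm library, 2 in each Sox2-positive library, 1 in incisor, 2 in lower molar and 3 in upper molar, while Amtn and Odam had none. At equal length these counts were 2 in each Sox2-positive library and 1 in every other library. Of 8 odontoblast and dental mesenchyme markers, 5 had one in each ectoderm library, 6 and 5 in the Sox2-positive libraries, 6 in incisor and 5 in each molar. At equal length they were 4 in ectoderm replicate 1 and 5 in every other library. Pdgfra had one in all 5 P2 libraries and neither ectoderm library, Prrx1 had one in both ectoderm libraries and Sox2-positive replicate 1 and in no other library, Dspp had one in incisor alone, and Dmp1 had none, all in the full lists. Of 5 endothelial markers, 2 had one in incisor and in lower molar and 1 in each other full list, and Pecam1, Tek and Emcn had none. At equal length 1 had one in each ectoderm and Sox2-positive library and 0 in the 3 whole teeth. Of 5 blood markers, 2 had one in every library, and Ptprc, Csf1r and Hba-a1 had none. The part of such cells in the results below was not tested.

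The loci fell apart by how many peaks they held. Sp6 and Sp7 lay in peak-rich surroundings in every library, while Sp8 and Klf5 held few peaks in the P2 libraries. In the equal-length lists, where the median gene had 4 peaks in each library, between 87.7% and 99.3% of genes had fewer peaks than Sp6 or Sp7. In the 5 P2 libraries between 17.1% and 28.2% of genes had fewer than Sp8, and between 17.1% and 27.1% fewer than Klf5. For Sp5 this share was 17.6% and 18.5% in the sorted cells and between 37.5% and 38.3% in the whole teeth. The windows also differ in what else they hold: 5 other protein-coding genes lie within 50 kb of Sp6 and 5 of Sp7, 2 of Sp5, 1 each of Sp8 and Klf5, and none of Klf4.

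**Figure D1:**
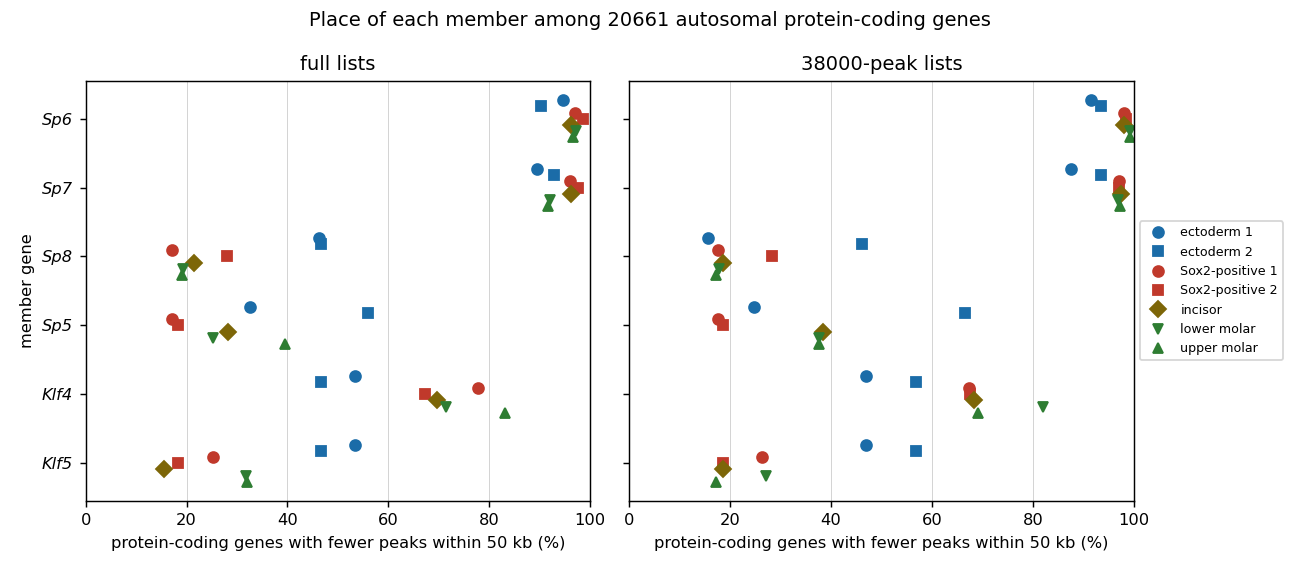
Share of the 20661 autosomal protein-coding genes (x axis, percent) that had fewer peaks within 50 kb than each member (y axis), in the full lists (left) and the equal-length lists (right), with 1 symbol per library. Sp6 and Sp7 lie at the right in every library, and Sp8 and Klf5 lie left of 30% in the P2 libraries of the equal-length lists.

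The first comparison set the sorted P2 cells against embryonic arch ectoderm. In the full lists both ectoderm counts exceeded those of the 2 Sox2-positive libraries at 3 of the 6 loci, namely Sp8, Sp5 and Klf5, and 41.4% of all genes met this rule. The reverse held at 0 loci, against 3.07% of all genes. In the equal-length lists the first rule was met at Sp5 and Klf5 (2 of 6, against 20.1% of genes). The reverse was then met at Sp6, Sp7 and Klf4 (3 of 6, against 17.6%). With 2 libraries against 2 the smallest two-sided exact permutation p is 0.333, so a permutation test could not pass at 0.05 at any locus, and no test was run.

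At Sp6, Sp7 and Klf4 the direction appeared only once list lengths were equal. At these 3 loci all 5 P2 libraries had more peaks than both ectoderm libraries in the equal-length lists, a rule met by 9.20% of all genes, and at 0 loci in the full lists, against 2.56%. At Klf4 the sequence covered by peaks did not share this direction, since both ectoderm libraries lay above both Sox2-positive libraries at equal length. Both ectoderm libraries had more peaks than all 5 P2 libraries at Sp8 and Klf5 in the full lists (2 of 6, against 13.8% of genes). In the equal-length lists this remained at Klf5 (1 of 6, against 13.2%).

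**Figure D2:**
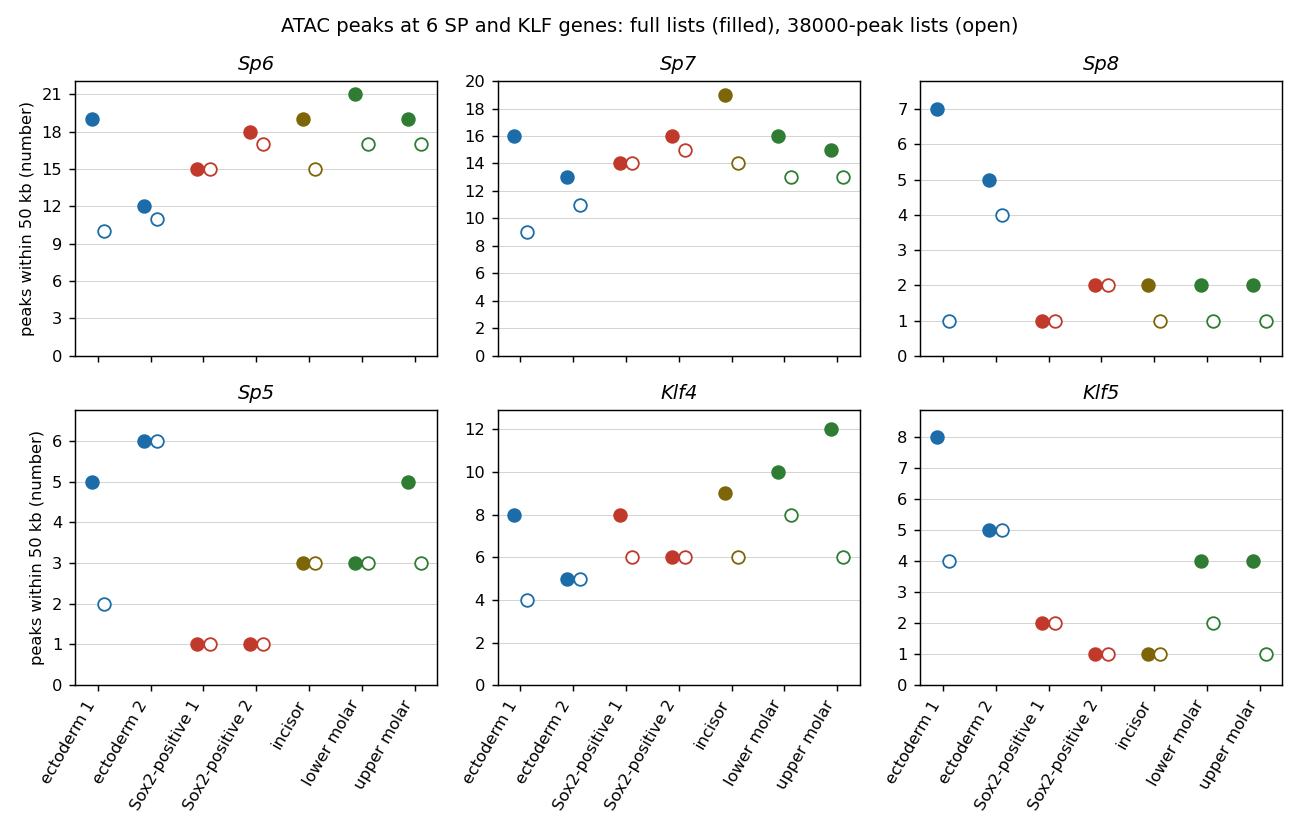
Number of peaks within 50 kb (y axis) at each of the 6 genes in each library (x axis), with filled symbols for the full lists and open symbols for the 38000-peak lists. At Sp6, Sp7 and Klf4 the open symbols of both ectoderm libraries lie below those of all P2 libraries, and at Klf5 they lie above them.

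Sp6, the ameloblast factor, lies on chromosome 11 at 97013569 to 97024739. Its window held 19 and 12 peaks in ectoderm, 15 and 18 in the sorted cells, 19 in incisor, 21 in lower molar and 19 in upper molar. The means of ectoderm (15.5 ± 4.95) and Sox2-positive cells (16.5 ± 2.12, SD, n = 2 each) differed by less than the spread between replicates. In the equal-length lists the counts were 10 and 11 in ectoderm, 15 and 17 in the sorted cells, 15 in incisor and 17 in each molar, so that ectoderm lay below every P2 library. In the full lists peaks covered 13.8 and 11.8 kb of the window in ectoderm, 11.8 and 16.9 kb in the sorted cells, 20.4 kb in incisor, and 22.3 and 22.9 kb in lower and upper molar. Peaks covered 9.85 and 11.02 kb in ectoderm in the equal-length lists, 11.8 and 16.3 kb in Sox2-positive cells, 16.7 kb in incisor, and 20.5 and 21.6 kb in lower and upper molar. The molars had the most covered sequence, and Sox2-positive replicate 1 lay close to ectoderm.

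Much of the difference at Sp6 lay in the 30.6 kb between the end of Sp2, a neighbouring family member, and Sp6. This interval was singled out after its values were seen, and its counts are given without a share over all regions. In the equal-length lists 1 of its 13 regions was open in each ectoderm library, 6 in each Sox2-positive library, 6 in incisor, 8 in lower molar and 7 in upper molar. In the full lists the numbers were 6 and 2 in ectoderm, 6 and 6 in Sox2-positive cells, and 8, 8 and 9 in incisor, lower and upper molar. Ectoderm replicate 1, the longest list, thus reached the Sox2-positive number, but 5 of its 6 regions were missing from replicate 2. In the full lists 5 of the 13 regions were open in all 5 P2 libraries. Of these 5 regions 1 was open in both ectoderm libraries, 2 in ectoderm replicate 1 alone and 2 in neither.

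The leading P2 region without ectoderm peaks lay at 97010364 to 97012245, 1.32 kb from the end of Sp6 with the lower coordinate and between the genes. By −log10 p it was among the top 37.1% and 23.8% of peaks in the Sox2-positive lists, 23.6% in incisor, and 4.79% and 4.03% in lower and upper molar. It was also in all 5 equal-length P2 lists. Another such region, at 97007965 to 97008729, was among the top 48.0% and 29.5% in the sorted cells, 17.5% in incisor, 15.1% in lower molar and 17.3% in upper molar. The last such region, at 97013093 to 97013984, covered the lower end of Sp6 itself and was open in all 5 P2 libraries, of which incisor lost it in its equal-length list. Near the other end of the gene the widest region of the 6 loci, 5889 bp at 97025034 to 97030922, had peaks in all 7 libraries and reached into Scrn2. It joined peaks whose strongest summits lay up to 3978 bp apart, and incisor had no peak within 1 kb of that end of Sp6.

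A region at 97022729 to 97023282 inside the gene had a peak in both ectoderm libraries and no P2 library, and was in the equal-length list of ectoderm replicate 2 only. The region at 97004524 to 97005196, 8.37 kb below the gene, was open in the 3 whole teeth alone and ranked at 82.4% of the incisor list, 31.7% of the lower molar list and 33.3% of the upper molar list. In both molars but not incisor the leading region was at 96999253 to 96999753, and in incisor but neither molar it was at 96991497 to 96992146. The leading region open in all 7 libraries lay inside Sp2, at 96976696 to 96978757.

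**Figure D3:**
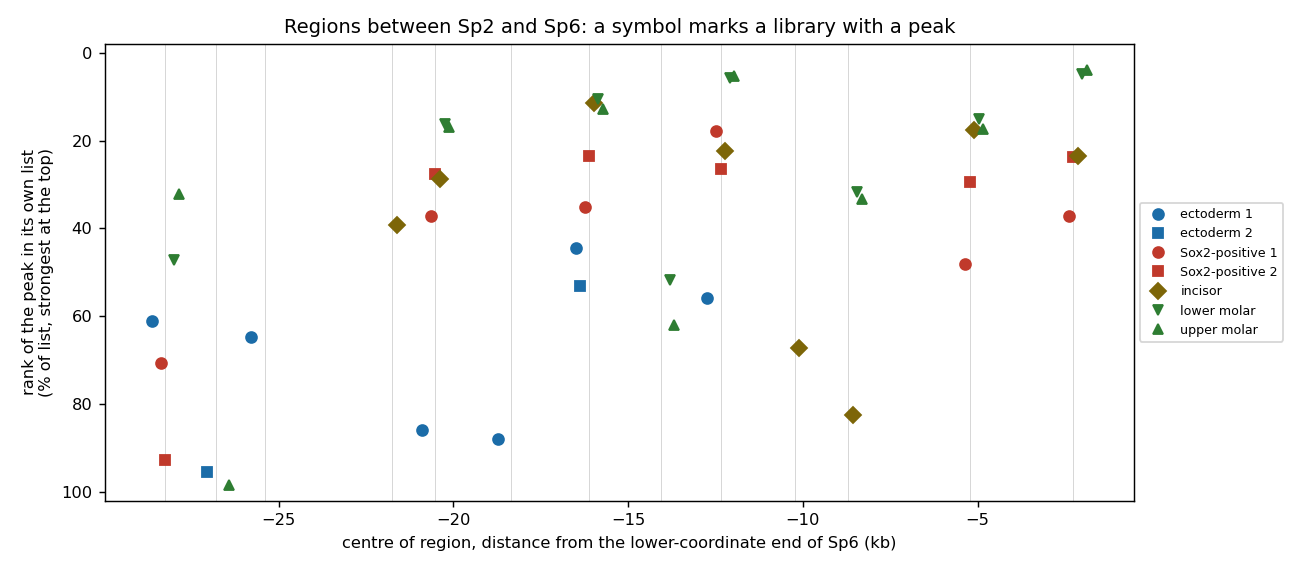
Regions between Sp2 and Sp6 by distance of their centre from the lower-coordinate end of Sp6 (x axis, kb), with the rank of each library's peak in its own full list (y axis, percent of the list, strongest at the top). A symbol is drawn only where the library has a peak: ectoderm symbols are absent from the 2 regions nearest to Sp6, which carry peaks of all 5 P2 libraries.

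Sp7, the osteoblast and odontoblast factor, lies on chromosome 15 at 102356603 to 102367035, and Sp1 is its neighbour 39.3 kb above. Its window held 16 and 13 peaks in ectoderm, 14 and 16 in the sorted cells, 19 in incisor, 16 in lower molar and 15 in upper molar, and the groups overlapped. With lists of equal length there were 9 and 11 in ectoderm, 14 and 15 in the sorted cells, 14 in incisor and 13 in each molar, and ectoderm lay below all others. When each list was reduced to its upper 50% by −log10 p, the mean counts were 8.5 in ectoderm and 9 in Sox2-positive cells. Of the 21 regions at Sp7, 10 were open in all 7 libraries, and 4 of these 10 lay within 1 kb of an end of another gene. Both ends of Sp7 had a peak in all 7 full lists.

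A region just below the lower end of Sp7, at 102354983 to 102356556, had a peak in every library. It was among the top 47.4% and 53.1% of peaks in ectoderm, 11.6% and 7.40% in the sorted cells, 2.39% in incisor, and 14.8% and 18.0% in lower and upper molar. The list of ectoderm replicate 1 lost it at equal length. Inside Sp7 a region at 102362630 to 102363534 was open in all 5 P2 libraries and neither ectoderm library, also in the equal-length lists. A second region of this pattern, at 102390853 to 102391363, lay between Sp7 and Sp1, and it was among the top 18.7% and 24.3% in the molars against 49.6% in incisor and 77.1% and 92.7% in Sox2-positive cells. Between Sp7 and Sp1, 3 and 4 of 10 regions were open in the equal-length ectoderm lists, 6 in each Sox2-positive list, 6 in incisor, 6 in lower molar and 5 in upper molar. In the full lists these numbers were 8 and 5, 6 and 6, 9, 6 and 6, with no such separation.

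The leading region of both ectoderm libraries without P2 peaks in this window lay inside Espl1, at 102316094 to 102316553, 40.0 kb from Sp7. Incisor but neither molar had 4 regions at Sp7, led by 102400619 to 102401389, which was open in ectoderm replicate 1 and both Sox2-positive libraries as well. No region at Sp7 was open in both molars and not in incisor, or in whole teeth alone. The leading region open in all 7 libraries was at 102404931 to 102407206 over an end of Sp1, and ranked within the top 0.323% of each list.

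Sp8, a factor of limb and facial ectoderm, lies on chromosome 12 at 118846288 to 118852578. Its window held 7 and 5 peaks in ectoderm, 1 and 2 in Sox2-positive cells, and 2 each in incisor, lower molar and upper molar. Ectoderm had 6 ± 1.41 peaks and Sox2-positive cells 1.5 ± 0.707 (SD, n = 2 each), and ectoderm did not overlap with any P2 library. Covered sequence came to 6.42 and 6.19 kb in ectoderm, 0.444 and 0.689 kb in Sox2-positive cells, and 0.974, 0.725 and 1.15 kb in incisor, lower molar and upper molar. At equal length the values were 0.810 and 5.58 kb in ectoderm, 0.444 and 0.689 kb in the sorted cells, and 0.446, 0.375 and 0.571 kb in the teeth, so that ectoderm replicate 1 lay near the P2 libraries. The gene body itself carried, in the full lists, 3.05 and 2.89 kb under peaks in ectoderm and none in any P2 library.

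Most ectoderm peaks at Sp8 did not rank high in the longer ectoderm list. The widest, at 118848057 to 118850408 inside the gene, was at 51.2% of the list of replicate 1 and 45.0% of that of replicate 2, so that it stayed in the equal-length list of replicate 2 only. The equal-length counts were 1 and 4 in ectoderm, 1 and 2 in Sox2-positive cells and 1 in each whole tooth, and the groups overlapped. When each list was reduced to its upper 50% by −log10 p, the means were 1.5 in ectoderm and 1 in Sox2-positive cells. The other 2 regions with peaks in both ectoderm libraries and no P2 library were at 118842846 to 118843406 and at 118846624 to 118847401. A single region was open in all 7 libraries, at 118854363 to 118855599, 1.78 kb above the gene, and it was among the top 5.64% and 9.32% of peaks in ectoderm. No region at Sp8 was open in P2 libraries alone.

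RefSeq lists 3 start sites for Sp8 with a promoter window each, from 250 bases before the start to 50 after it (GRCm38.p6). The second window, on the plus strand at chr12:118846983-118847282, is shown because its start site at 118847233 was the one of the 3 under a peak in both ectoderm libraries. Peaks of the full lists covered 300 of its bases in ectoderm replicate 1, 252 in replicate 2 and 0 in every P2 library. In the equal-length lists they covered 0 of its bases in every library, ectoderm included. Capitals here and in the sequences below mark the letters GGGCGG (the GC box of SP and KLF factors), CACCC (KLF factors), and CTTTGAT or CTTTGAA (TCF and LEF factors of WNT signalling), read on both strands.
Sp8 promoter window: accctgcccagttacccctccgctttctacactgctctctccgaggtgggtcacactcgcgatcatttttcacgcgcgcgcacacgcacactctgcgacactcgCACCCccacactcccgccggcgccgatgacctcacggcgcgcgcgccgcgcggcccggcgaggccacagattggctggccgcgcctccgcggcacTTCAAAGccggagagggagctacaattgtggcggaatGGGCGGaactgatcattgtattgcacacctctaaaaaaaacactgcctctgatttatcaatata
It holds 1 GGGCGG at position -14 from the start, 1 CACCC and 1 CTTTGAA on the minus strand. Over all 32817 RefSeq promoter windows, 35.6% held GGGCGG, 57.5% CACCC and 5.14% CTTTGAA. A match of letters is no evidence of binding.

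Sp5, the WNT target, lies on chromosome 2 at 70474923 to 70477726 and the only peak of the sorted cells in its window lay 31.1 kb away. Its window held 5 and 6 peaks in ectoderm, 1 in each Sox2-positive library, 3 in incisor, 3 in lower molar and 5 in upper molar. Ectoderm (5.5 ± 0.707) lay above Sox2-positive cells (1 ± 0, SD, n = 2 each), and the whole teeth lay between them, reaching the lower ectoderm value in upper molar. With 38000 peaks per library the counts were 2 and 6 in ectoderm, 1 and 1 in Sox2-positive cells and 3 in each whole tooth, so the ectoderm replicates lay on either side of the teeth. The 1 Sox2-positive peak was at an end of Erich2, at 70508804 to 70509829, which was open in all 7 libraries. When peaks at ends of other genes were left out, no peak of the sorted cells remained in the window.

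Near the start of Sp5 the ectoderm replicates differed, and the start site itself lay under a peak of ectoderm replicate 1 alone. A region at the start and over the first part of the gene, at 70474910 to 70475684, had a peak in both ectoderm libraries and no P2 library, and at equal length in ectoderm replicate 2 alone. The region just before it, at 70474182 to 70474781, had one in ectoderm replicate 2 and all 3 whole teeth. A region inside the gene, at 70476290 to 70477248, had one in both ectoderm libraries and all 3 whole teeth, and again in neither Sox2-positive library. The leading region of ectoderm alone, at 70442829 to 70443816 and 31.1 kb below the gene, was among the top 7.92% and 19.2% of ectoderm peaks, and was in both equal-length lists. A further ectoderm-only region was at 70471750 to 70472396. No region at Sp5 was open in Sox2-positive cells or in all P2 libraries without ectoderm.

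The promoter window of Sp5, on the plus strand at chr2:70474673-70474972, is shown because it spans the gap between those neighbouring regions.
Sp5 promoter window: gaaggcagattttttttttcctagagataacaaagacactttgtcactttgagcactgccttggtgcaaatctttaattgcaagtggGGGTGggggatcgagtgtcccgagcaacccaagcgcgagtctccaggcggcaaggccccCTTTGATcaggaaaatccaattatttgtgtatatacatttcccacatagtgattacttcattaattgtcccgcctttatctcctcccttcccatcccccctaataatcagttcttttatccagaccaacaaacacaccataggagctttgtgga
Peaks covered 63 of its 300 bases in ectoderm replicate 1 and 42 in replicate 2, 0 in both Sox2-positive libraries and in incisor, 109 in lower molar and 13 in upper molar. At equal length ectoderm replicate 1 covered 0 of its bases, and the other values were unchanged. The window holds 1 CTTTGAT at position -104 from the start, under a peak in none of the 7 libraries, and 1 CACCC on the minus strand. CTTTGAT was found in 3.73% of all promoter windows.

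Klf4, an epithelial differentiation factor, lies on chromosome 4 at 55527137 to 55532475 with no other protein-coding gene in its window. The window held 8 and 5 peaks in ectoderm, 8 and 6 in the sorted cells, 9 in incisor, 10 in lower molar and 12 in upper molar. Ectoderm (6.5 ± 2.12) and Sox2-positive cells (7 ± 1.41, SD, n = 2 each) overlapped, and the teeth lay above both. At equal length the counts were 4 and 5 in ectoderm, 6 and 6 in the sorted cells, 6 in incisor, 8 in lower molar and 6 in upper molar. Covered sequence was then 5.06 and 5.37 kb in ectoderm, above the 4.96 and 3.72 kb of the sorted cells. It was 5.76 kb in incisor, 9.34 kb in lower molar and 6.41 kb in upper molar. With each list reduced to its upper 50% by −log10 p, ectoderm had the higher mean count, 4 against 2.5 in Sox2-positive cells.

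Of 11 regions at Klf4, 4 were open in all 7 libraries and none was open in both ectoderm and no P2 library, or in all P2 libraries without ectoderm. The region over the start of the gene, at 55532069 to 55534125, was among the top 25.4% and 23.3% of peaks in ectoderm, 21.8% and 14.9% in the sorted cells, 9.76% in incisor, 9.14% in lower molar and 7.79% in upper molar. A region at 55514465 to 55515415, 11.7 kb from the gene, was also in all full and all equal-length lists. Whole teeth alone had 2 regions, led by 55546138 to 55546719. Both molars without incisor had 2 as well, led by 55496163 to 55497165, 30.0 kb from the gene, which was also open in both ectoderm libraries and Sox2-positive replicate 1.

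The promoter window of Klf4, on the minus strand at chr4:55532426-55532725, is shown as the one that lay wholly under a peak, 300 of 300 bases, in all 7 full and all 7 equal-length lists.
Klf4 promoter window: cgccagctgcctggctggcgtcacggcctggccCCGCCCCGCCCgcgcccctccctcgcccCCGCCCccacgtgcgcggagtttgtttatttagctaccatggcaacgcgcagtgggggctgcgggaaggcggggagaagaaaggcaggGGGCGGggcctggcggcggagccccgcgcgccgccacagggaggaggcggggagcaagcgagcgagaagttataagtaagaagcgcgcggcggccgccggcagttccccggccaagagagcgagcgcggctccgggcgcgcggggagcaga
It holds 4 GGGCGG boxes, at positions -217, -212, -189 and -101 from the start, of which the first pair overlap by 1 base. Its bases were 74.3% G or C, against 61% in the Sp8 and 45% in the Sp5 window shown above.

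Klf5, a factor of proliferating epithelium, lies on chromosome 14 at 99298691 to 99313412 and had 1 strong region at its lower end. The window held 8 and 5 peaks in ectoderm, 2 and 1 in the sorted cells, 1 in incisor, 4 in lower molar and 4 in upper molar. Ectoderm (6.5 ± 2.12) lay above Sox2-positive cells (1.5 ± 0.707, SD, n = 2 each), and above all P2 libraries. This held in the equal-length lists, with 4 and 5 in ectoderm, 2 and 1 in the sorted cells, 1 in incisor, 2 in lower molar and 1 in upper molar. Covered sequence was 3.38 and 4.004 kb in these ectoderm lists and between 1.22 and 1.78 kb in the P2 lists. It was, in the full lists, 4.91 and 4.004 kb in ectoderm and between 1.22 and 2.64 kb in the P2 libraries.

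The region over the lower end, at 99297897 to 99299670, was open in all 7 libraries and was among the top 0.408% and 1.02% of peaks in ectoderm, 4.26% and 6.39% in the sorted cells, 2.77% in incisor, 1.89% in lower molar and 1.98% in upper molar. Its strongest summits lay within 4 bp of each other in the 7 libraries. In incisor and Sox2-positive replicate 2 it was the only peak of the window. Ectoderm alone had 2 regions, at 99336518 to 99337510 (23.1 kb above the gene) and at 99315544 to 99316056, both in both equal-length ectoderm lists. Another region of the equal-length ectoderm lists, inside the gene at 99305463 to 99305937, also had a peak in the full list of lower molar, at 96.0% of it. Both molars had a peak at 99323517 to 99323847 and incisor had none, and Sox2-positive replicate 1 shared it.

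**Figure D4:**
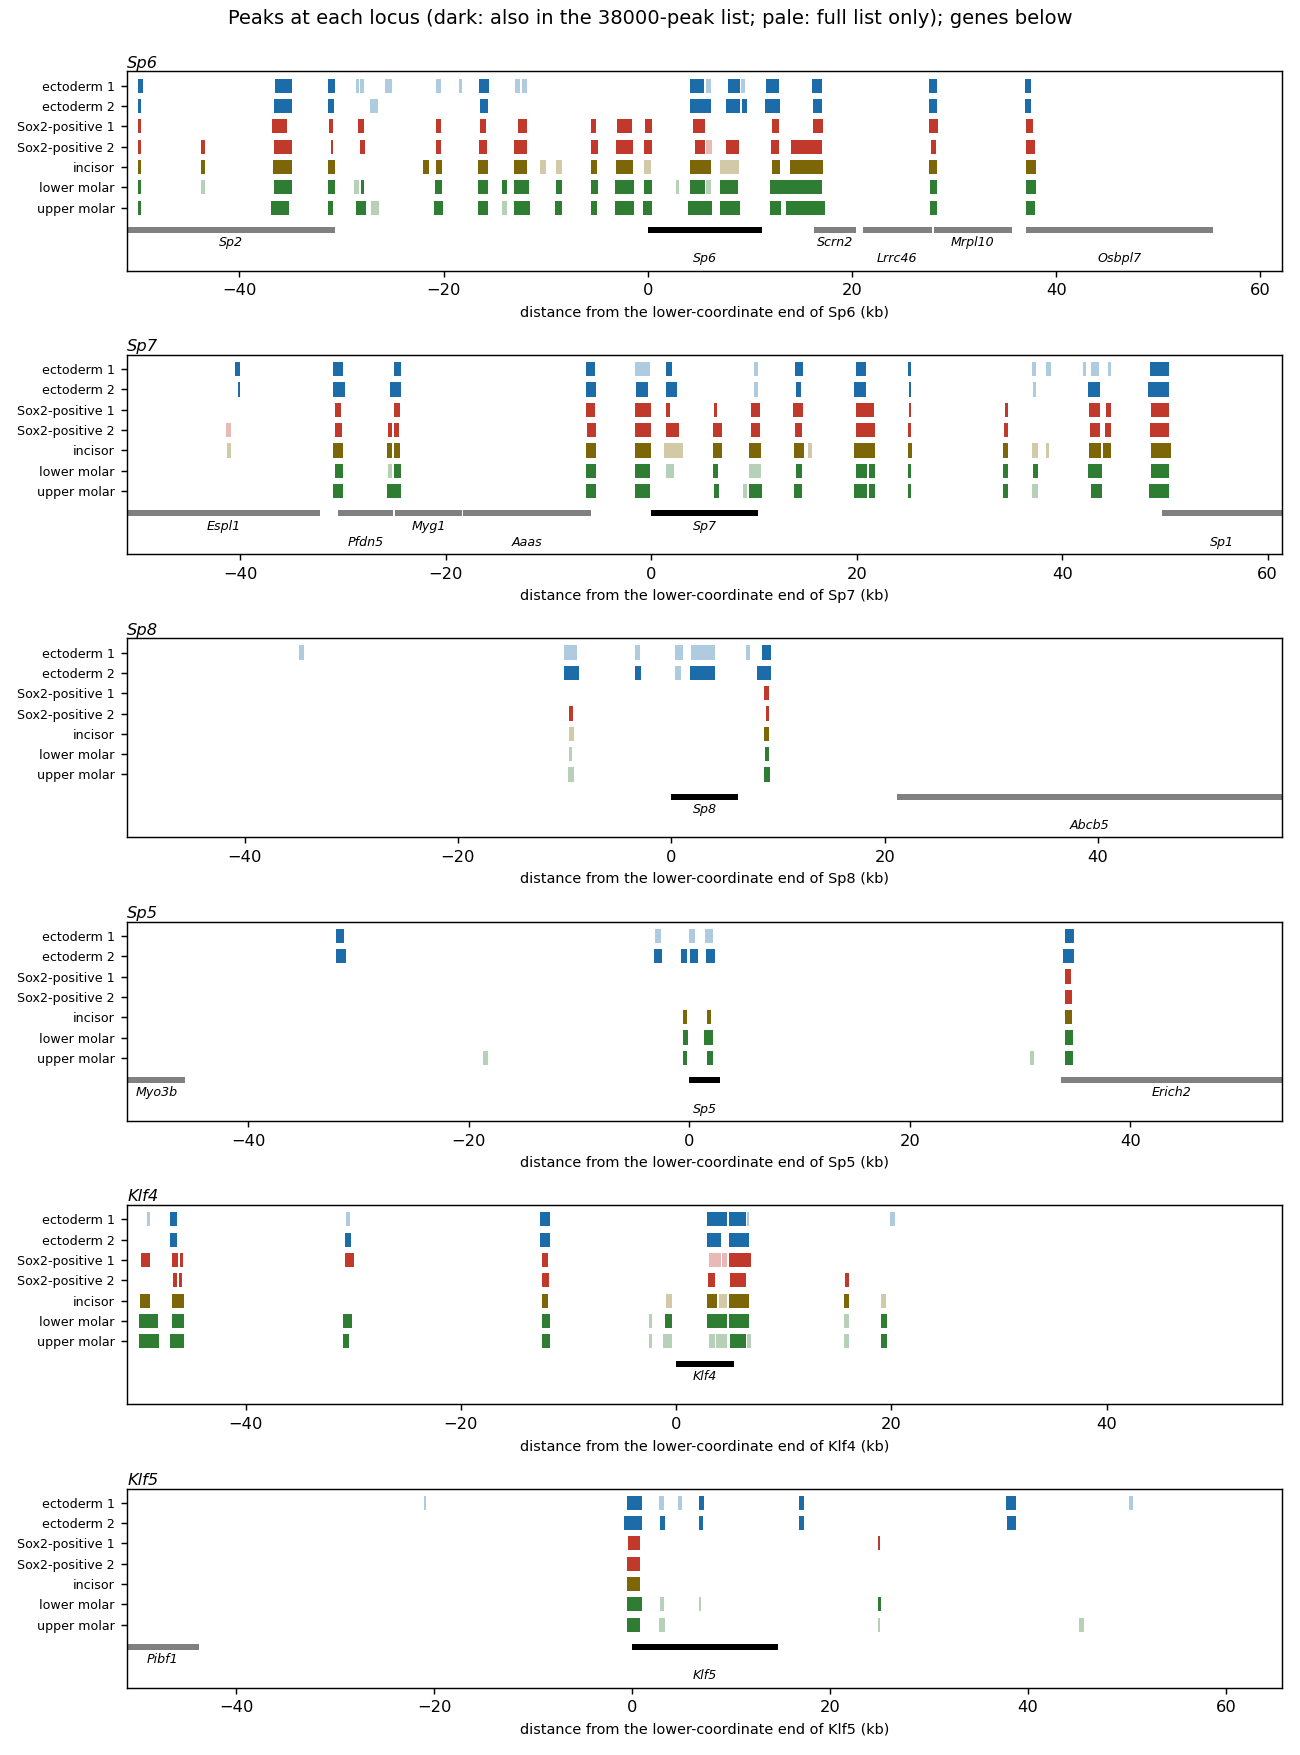
Peaks of the 7 libraries (1 line each) at each of the 6 genes by distance from the lower-coordinate end of the gene (x axis, kb, to scale), in dark colour where the peak is also in the 38000-peak list and in pale colour where it is in the full list only. Bars below each panel show the gene (black) and its neighbours (grey). Between Sp2 and Sp6 dark peaks lie in more regions in P2 libraries than in ectoderm, and peaks of ectoderm replicate 1 there are mostly pale. Ectoderm peaks over the body of Sp8 have no counterpart in P2 libraries.

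A peak within 1 kb of either end was found in all 7 full lists at Sp6, Sp7, Klf4 and Klf5 (4 of 6, against 54.1% of all genes). All 7 equal-length lists had one at Klf4 and Klf5 (2 of 6, against 50% of all genes). Such a peak in both ectoderm lists and neither list of sorted cells was found at Sp8 and Sp5 (2 of 6, against 6.49%). With lists of equal length 0 of 6 met this rule, against 3.95% of genes, and ectoderm replicate 1 then had none at either gene. Sp8 had one in both ectoderm and no P2 library (1 of 6, against 3.17%), and none in any equal-length list (0 of 6, against 3.07%). Sp5 had one in all 3 whole teeth and neither Sox2-positive library (1 of 6, against 1.57%), and this held in the equal-length lists, where 0.252% of genes met the rule.

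Counted over regions, the loci held 14 regions open in ectoderm replicates 1 and 2 but not in the sorted cells (17.1% of 82, against 17.9% of all regions) and 5 of the reverse kind (6.10%, against 5.90%). Over regions open in any library, both shares were close to those of all regions. Over the 43 regions open in both ectoderm libraries the first share was 32.6%, against 48.6% of all such regions, and over the 35 open in both Sox2-positive libraries the second was 14.3%, against 26.7%. Judged without ectoderm replicate 2 the first count was 24. The second was 9 without ectoderm replicate 1 and 8 without Sox2-positive replicate 1. All 5 of the reverse kind lay at Sp6 (3) and Sp7 (2) and were open in all 3 whole teeth too, so that they were also the regions of all 5 P2 libraries without ectoderm (6.10%, against 4.61%). In the equal-length lists, with 61 regions at the loci, there were 5 of the first kind (8.20%, against 15.7%) and 10 of the second (16.4%, against 12.0%), of which 6 lay at Sp6 and 4 at Sp7. Over the 29 regions open in both equal-length ectoderm lists the first share was 17.2%, against 37.4% of all such regions. Over the 34 open in both Sox2-positive lists the second was 29.4%, below the 34.2% of all such regions. All 5 P2 libraries without ectoderm then had 6 regions (9.84%, against 6.29%), 4 at Sp6 and 2 at Sp7. Regions open in both ectoderm and no P2 library numbered 10 (12.2%, against 11.7%), with 3 each at Sp8 and Sp5, 2 at Klf5 and 1 each at Sp6 and Sp7. At equal length there were 5 (8.20%, against 12.8%), 3 of them at Klf5.

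Regions open in all 7 libraries were the most frequent kind, 25 of 82 (30.5%), against 14.2% of all regions and 16.4% of those within 50 kb of any protein-coding gene. At equal length they were 21 of 61 (34.4%, against 19.2%). The loci differed: in the full lists this kind made up 32% of regions at Sp6, 47.6% at Sp7 and 36.4% at Klf4. At Sp8, Sp5 and Klf5 it made up 14.3%, 12.5% and 10%, with 1 region each. Of the 25 regions in the full lists, 9 lay within 1 kb of an end of another gene and 11 away from all gene ends. Replicates shared 43 of the 60 regions open in either ectoderm library (71.7%, against 59.6% over all regions) and 35 of the 43 open in either Sox2-positive library (81.4%, against 59.7%). The 2 molars shared 48 of 57 (84.2%, against 77.7%). The ectoderm replicates shared, at equal length, 29 of 41, which was below the share of all regions instead of above it (70.7%, against 76.6%). The Sox2-positive replicates then shared 34 of 42 (81.0%, against 59.98%) and the molars 38 of 44 (86.4%, against 79.6%). The Sox2-positive replicates shared 1 of 2 regions each at Sp8 and Klf5 in the full lists, and at Klf4 4 of 7.

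The next comparison set the sorted cells against whole lower incisor, the tooth type they were taken from, in a separate library. Nothing says that they came from the same animals, and dissection and sorting differed as well. Of 35 regions open in both Sox2-positive libraries 34 were open in incisor, and the exception was at Sp6, at 96984739 to 96985920 (1 of 82 regions, against 0.970% of all regions). Judged by Sox2-positive replicate 1 alone, 3 regions lacked an incisor peak. Incisor had 10 regions without Sox2-positive peaks (12.2%, against 15.7%): 3 each at Sp6 and Sp7 and 2 each at Sp5 and Klf4. With 38000 peaks per library 3 were left (4.92%, against 8.12%), of which 2 lay at Sp5, just before its start and inside it, and 1 at Sp6. Sox2-positive regions without incisor peaks were then also 3 (4.92%, against 4.69%). By counts incisor was above both Sox2-positive libraries at 4 loci, Sp6, Sp7, Sp5 and Klf4 (against 51.9% of genes), and at Sp5 alone in the equal-length lists (1 of 6, against 14.5%). The reverse was found at 0 loci in both (against 2.57% and 18.6% of genes).

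Between tooth types, each tooth had 1 library and differences had no replicate check. Incisor without molar peaks had 6 regions, 4 at Sp7 and 2 at Sp6 (7.32%, against 9.24%). Both molars without incisor had 6, with 2 each at Sp6, Klf4 and Klf5 (7.32%, against 11.9%). By counts both molars were above incisor at Klf4 and Klf5 (2 of 6, against 32.8% of genes) and incisor was above both molars at Sp7 (1 of 6, against 18.2%). At equal length the molars were above at Sp6 (1 of 6, against 21.8%) and incisor at Sp7 (1 of 6, against 22.8%). Sp7 was the one locus that held its direction, by 14 against 13 and 13 peaks, a difference of 1. Lower molar had 4 regions that upper molar lacked (4.88%, against 6.91%), and upper molar had 5 that lower molar lacked (6.10%, against 5.89%). Whole teeth alone had 3 regions, 2 at Klf4 and 1 at Sp6 (3.66%, against 3.94%), and 0 at equal length (against 1.77%). The other tooth counts at equal length were 4 for incisor without molars (6.56%, against 12.2%) and 6 for molars without incisor (9.84%, against 10.8%). Lower molar without upper molar had 5 (8.20%, against 5.43%), and upper molar without lower molar had 1 (1.64%, against 5.54%).

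The other SP and KLF genes were read in the same way for 19 of 20 genes, leaving out Klf8 on the X chromosome. A gene-end peak was found in all 7 full lists at 15 of them, against 54.1% of all genes. All 7 equal-length lists had such a peak at 15 of 19 as well, against 50% of all genes. Klf14 had one in both ectoderm libraries and no P2 library, and in no equal-length list. Klf17 had none in any library. Peak counts of both ectoderm libraries lay above those of the sorted cells at 6 of the 19 and below them at 3, against 41.4% and 3.07% of all genes. With lists of equal length these were 3 and 7 of 19, against 20.1% and 17.6%. The 7 were Sp1, Sp2, Sp3, Klf2, Klf7, Klf13 and Klf16, of which Sp1 and Sp2 share part of their windows with Sp7 and Sp6. Klf13 had 3 and 4 peaks in ectoderm in these lists and 14 and 11 in the sorted cells, with 8 for incisor and 12 for both molars.

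The genes whose equal-length counts over the 7 libraries were most like those of a member were found by the sum of absolute differences. For Klf4 they were Plekhf2 (0), Rac1 and Ccdc27 (2 each), and for Klf5 Arg1 (0), Fzd1 and Scn3a (1 each). For Sp6 they were Eif2b3 (6), Nol12 and Ptprf (7 each), and for Sp7 Hivep3, Itgb7 and Lgals1 (4 each). For Sp8 23 genes lay within a sum of 2, and for Sp5 15 within 4, and none is named. With 7 counts per gene, small sums are common among genes with few peaks.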

How the data were processed

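Omni-ATAC libraries were analysed from 7 deposited peak lists, 1 per library. Per the submitters' processing notes, FastQC, Trimmomatic, Bowtie2, deepTools and Genrich were used with the mouse build mm10. Parameters are not given in the sources used here. The deposited lists give a signal and a −log10 p-value for each peak, both the authors' own. They were used only to rank peaks within a list. Read depth is unknown, so list length was set equal at 38000 autosomal peaks as a second reading.

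Gene positions came from RefSeq for GRCm38. Between 25.2% and 30.2% of gene ends lay under a peak, against 2.43% to 3.87% when moved by 10 or 50 kb. The table gives no strand or exons, so either gene end was used in place of the gene start that the design named, and exon or intron was not analysed here. Peaks were counted with Python 3.11.15, numpy 2.4.6 and pandas 2.3.3, and plotted with matplotlib 3.10.9. The counting was tested on simulated data. Regions are joined overlapping peaks, and a rank is a peak's place by −log10 p as a percent of its list.

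Each member's named regions were the one over a gene end and, for each pattern of open libraries, the one with the smallest mean rank. The intervals beside Sp6 and Sp7, the Sp8 gene body and any other region named were chosen after their values were seen. Counts in the intervals are given without a share over all regions, so how unusual they are was not tested. The members and lists were chosen with earlier results of these data known. No test was run. A marker gene of the epithelial list is not reported here. RefSeq promoter windows were matched for 3 of the 6 members (Sp8, Sp5 and Klf4). Sp6, Sp7 and Klf5 had no entry. Windows of neighbouring genes overlap and are not independent.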

Additional observations from a re-analysis of the deposited data

How the results depend on the processing

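Counts at the 6 loci followed list length and window size, and causes were not tested. Regions of both ectoderm and neither Sox2-positive library (14) became 5 with 38000 peaks by p or by signal, 7 with the upper 50% of each list, 23 with a 100 kb window, and 15 to 24 when a replicate was left out. The reverse kind (5) became 10 by p, 9 by signal, 8 at 100 kb, and 5 to 9 with a replicate left out. Sox2-positive regions without incisor (1) became 3 by p, 2 by signal, 4 with 200 bp around summits, 0 when 50% of the region had to be covered, 0 at 25 kb, and 1 to 3 with a replicate left out. Incisor regions without Sox2-positive peaks (10) became 3 by p, 3 by signal, 5 with the upper 50% and 18 at 100 kb. Incisor without molars (6) became 3 at 25 kb and 10 at 100 kb, and molars without incisor (6) became 10 at 100 kb. Lower molar alone of the molars (4) became 2 by signal, 2 with the upper 50%, 10 with summits, 2 with 50% covered and 9 at 100 kb. Upper molar alone (5) became 1 by p, 2 by signal, 3 with the upper 50%, 11 with summits and 2 at 25 kb. The ectoderm minus Sox2-positive mean count changed sign at 3 loci. At Sp6 (-1) it was -5.5 with 38000 peaks by p, -5 by signal and -3.5 with the upper 50%. With a replicate left out it ran from -4.5 without ectoderm replicate 1 to 2.5 without ectoderm replicate 2. It was 0.5 without Sox2-positive replicate 2. At Sp7 (-0.5) it was -4.5 with 38000 peaks by p or by signal, but -0.5 with the upper 50%, and 1.5 at 100 kb. There it was -2 without ectoderm replicate 1, 1 without ectoderm replicate 2 and 0.5 without Sox2-positive replicate 2. At Klf4 (-0.5) it was -2.5 with 38000 peaks by signal, 1.5 with the upper 50%, -2 without ectoderm replicate 1, 1 without ectoderm replicate 2 and 0.5 without Sox2-positive replicate 1. At Sp8, Sp5 and Klf5 it stayed above 0 in every alternative run but shrank with shorter lists. At Sp8 (4.5) it was 1 with 38000 peaks by p and 0.5 with the upper 50%. In the same runs it was 3 and 2.5 at Sp5 (4.5), and 3 and 2 at Klf5 (5). Leaving out peaks at ends of other genes was chosen after seeing the data. No paired analysis was possible because the labels link no library of one group to a library of another. Whole teeth had 1 library each, so none could be left out. Peaks near the end of a list are the least certain, and unknown depth limits what a missing peak shows.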
